A study of Mus musculus with 8 samples.

Results

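The mitochondrial ribosomal proteins were taken as all genes with a symbol of the form Mrpl or Mrps followed by a number that were named alone by a probe set of the array. They came to 71 of 22180 genes, with 43 symbols of the large subunit (Mrpl) and 28 of the small subunit (Mrps). Each gene was represented by its brightest such probe set, and 9 members had several. A further 7 symbols of the family, Mrpl30, Mrpl33, Mrpl41, Mrpl43, Mrpl44, Mrpl53 and Mrps6, were found only on probe sets shared with a second gene and are described separately. Of the 71 members, 70 passed the filter on dim genes (a mean log2 signal of at least 2.30), and Mrps14 did not.

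The mitochondrial ribosome translates the messages of mitochondrial DNA, which in mammals encode core subunits of the respiratory chain and of ATP synthase. Its ribosomal RNAs come from mitochondrial DNA, whereas its proteins are encoded in the nucleus, made by cytosolic ribosomes and imported. It carries both proteins with bacterial counterparts and proteins found only in mitochondria, and skeletal muscle, which depends heavily on respiration, is among the tissues affected when its genes are mutated in people.

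The cells were C2C12, an immortalised mouse myoblast line, transduced with a retrovirus and then differentiated into myotubes. Control cells (Scrb) carried a scrambled shRNA and knockdown cells (SiBc) an shRNA against Baf60c, a subunit of BAF chromatin remodelling complexes whose gene symbol is Smarcd3. Each was kept for 12 h at 1 mM (LG) or 10 mM (HG) glucose, which gave 4 groups of 2 biological replicates, 8 Affymetrix Mouse Gene ST arrays in all, so every group was a culture of the same line carrying a virus. The comparisons ask how glucose and Baf60c, separately and together, bear on transcript levels in these cells.

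Replicate arrays correlated at 0.987 to 0.990. Smarcd3 was read only by a probe set shared with Chpf2, and this signal fell in SiBc by 2.62 at 1 mM glucose (adjusted p = 0.00313) and by 1.98 at 10 mM (adjusted p = 0.0171) on the log2 scale. All 10 myotube markers examined (Myog, Myh3, Ckm and others) passed the filter. Their mean log2 signal was 9.36 to 9.48 on the control arrays at 1 mM and 10.04 to 10.16 at 10 mM, and 8.01 to 8.09 and 9.11 to 9.17 on the corresponding SiBc arrays. All 10 rose with glucose, as did 12 of 13 cell cycle genes, with a median log2 change of 2.49. All 6 markers of undifferentiated myoblasts passed the filter too, and 2 of them rose and 1 fell with glucose. Markers of other cell types were dim: 2 of 4 for macrophages, 3 of 4 for adipocytes, 2 of 4 for endothelial cells, 3 of 4 for neurons and 0 of 3 for liver cells passed the filter, and the mean of each list lay between 1.71 and 3.53 on every array. Of these, the macrophage markers Cd68 and Ptprc fell with glucose on average, by 0.94 and 0.43, and the adipocyte marker Cebpa and the neuron marker Tubb3 rose, by 0.56 and 1.41. The part of any of these shifts in the changes of ribosomal protein genes was not tested.

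Changes were tested with limma across 13308 genes. A gene was called, and is said to have risen or fallen, where its Benjamini-Hochberg adjusted p over all these genes was under 0.05. Values are log2 RMA signals, so a change of 1 is 2-fold, and ± gives the standard error of the fit. Signals of different probe sets are not compared with each other, since probe sets differ in brightness. In bulk RNA, less transcript per cell cannot be told apart from a lower share of cells that carry it.

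The upstream sequences of 7 members that changed with glucose are printed first, 6 of them picked after the search because they hold letters of motifs bound by known regulators, and that of Mrpl46 as a case with none. They come from RefSeq, mouse build GRCm38.p6, 5′ to 3′ on the strand of the gene, and hold the 250 bases before an annotated transcription start. The motifs searched on both strands were GCATGCG (part of the site of NRF1, a regulator of respiratory genes), CCGGAAG (the core of ETS family sites, which include those of GABP), CACGTG (the E-box, bound by Myc and by the glucose-responsive factor ChREBP among others) and AGATGGC (part of the YY1 site). Capitals mark every match, on either strand, to 1 of these 4 motifs. Mrps18b (chr17:35916441-35916690, minus strand), Mrps18c (chr5:100798509-100798758, plus), Mrpl2 (chr17:46645971-46646220, plus, 1 of 3 overlapping windows), Mrpl10 (chr11:97041332-97041581, plus) and Mrpl46 (chr7:78783090-78783339, minus) fell with glucose. Mrpl18 (chr17:12916092-12916341, minus) and Mrps16 (chr14:20393491-20393740, minus, the first of its windows by coordinate) rose.
Mrps18b: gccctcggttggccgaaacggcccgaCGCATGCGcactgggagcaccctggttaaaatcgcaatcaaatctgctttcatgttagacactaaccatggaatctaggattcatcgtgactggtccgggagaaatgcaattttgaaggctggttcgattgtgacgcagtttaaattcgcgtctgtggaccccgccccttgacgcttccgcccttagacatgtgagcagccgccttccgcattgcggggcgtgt
Mrps18c: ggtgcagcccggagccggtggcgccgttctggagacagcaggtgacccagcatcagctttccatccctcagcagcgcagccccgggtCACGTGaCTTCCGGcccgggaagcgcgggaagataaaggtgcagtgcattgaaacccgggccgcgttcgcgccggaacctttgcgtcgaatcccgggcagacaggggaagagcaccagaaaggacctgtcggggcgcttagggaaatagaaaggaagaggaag
Mrpl2: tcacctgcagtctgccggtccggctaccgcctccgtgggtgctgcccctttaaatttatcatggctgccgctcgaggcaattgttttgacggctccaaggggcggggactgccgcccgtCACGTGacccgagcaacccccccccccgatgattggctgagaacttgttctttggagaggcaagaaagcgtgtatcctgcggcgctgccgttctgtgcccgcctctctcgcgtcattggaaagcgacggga
Mrpl10: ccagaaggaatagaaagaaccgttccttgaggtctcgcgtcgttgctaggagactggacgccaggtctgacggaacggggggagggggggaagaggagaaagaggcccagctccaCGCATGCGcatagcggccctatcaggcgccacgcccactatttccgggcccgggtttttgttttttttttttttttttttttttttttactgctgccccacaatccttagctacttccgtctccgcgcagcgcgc
Mrpl46: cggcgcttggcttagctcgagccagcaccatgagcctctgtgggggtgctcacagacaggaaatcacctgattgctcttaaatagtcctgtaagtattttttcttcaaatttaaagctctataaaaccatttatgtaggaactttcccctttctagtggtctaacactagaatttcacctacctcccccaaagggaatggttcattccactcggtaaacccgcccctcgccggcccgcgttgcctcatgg
Mrpl18: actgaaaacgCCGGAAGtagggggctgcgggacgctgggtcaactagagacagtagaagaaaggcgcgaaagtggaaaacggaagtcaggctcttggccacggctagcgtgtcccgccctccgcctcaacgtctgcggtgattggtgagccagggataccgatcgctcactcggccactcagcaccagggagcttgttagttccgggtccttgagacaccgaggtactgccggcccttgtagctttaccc
Mrps16: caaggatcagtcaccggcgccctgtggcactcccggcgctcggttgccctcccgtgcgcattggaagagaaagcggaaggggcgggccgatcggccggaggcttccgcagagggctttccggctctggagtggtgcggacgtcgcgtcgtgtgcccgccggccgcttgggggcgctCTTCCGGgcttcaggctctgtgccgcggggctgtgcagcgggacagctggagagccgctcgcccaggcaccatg

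In the Mrps18b window, overlapping NRF1 letters on the 2 strands began at positions -224 and -223, counted from the start site at 0. The Mrpl10 window held the same overlapping arrangement at -135 and -134. In the Mrps18c window an E-box began at -163 and ETS letters at -156, and the Mrpl2 window printed held an E-box at -131. ETS letters began at -240 before Mrpl18 and at -74 before Mrps16. After the start, beyond the printed bases, Mrps18b held NRF1 letters at 28 and ETS letters at 43. Mrps16 held ETS letters there at 24. None of the 4 motifs was found in the windows of Mrpl46, Mrpl24 and Mrps2 or in the second window of Mrps16, and that of Mrps21 held ETS letters only after the start, at 18. Such a match is a run of letters, and no binding was measured here.

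Windows of 300 bases, 250 before and 50 after the start, were given for 62 of the 71 members, as 68 windows. The ETS letters were present in 33.8% of these windows and in 8.86% of all 32851 windows of the reference table, the YY1 letters in 17.6% against 6.4%, the NRF1 letters in 10.3% against 3.58% and the E-box in 10.3% against 7.15%. At least 1 of the 4 motifs occurred in 57.4% of the members' windows and in 22.9% of all windows. Members that fell with glucose had 9 windows, of which 4 held an E-box, 3 of them the overlapping windows of Mrpl2. Windows of members that were not called held an E-box in 5.56% and YY1 letters in 22.2%.

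A minority of the mitochondrial ribosomal proteins changed with glucose, more of them downwards. Averaged over both shRNAs, 3 of the 70 tested members rose and 10 fell at 10 mM against 1 mM glucose, while 39.1% of all tested genes were called (21.3% higher and 17.8% lower), so the share of members called, 18.6%, was below that of all genes. The median log2 change of the members was -0.10, against 0.01 over all genes, and 47 of the 70 lay below 0, against 48.9% of all genes. Mrps16, Mrpl18 and Mrps21 rose. Mrps18b, Mrpl46, Mrps18c, Mrps28, Mrpl15, Mrps35, Mrpl24, Mrpl2, Mrpl10 and Mrps2 fell. The 95% interval of the change stayed within 2-fold for 66 of the 70, against 78.8% of all genes, and only Mrps18b changed by more than 2-fold. No array of 1 glucose level overlapped the other level for 5 members that were higher and 11 that were lower at 10 mM, and the background for these 2 counts was 18% and 16.7% of all genes. The count of 13 rested in part on single arrays: it was 5 without SiBc_HG replicate 1, 7 without Scrb_LG replicate 1 or without SiBc_HG replicate 2, and 8 without SiBc_LG replicate 1.

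**Figure D1:**
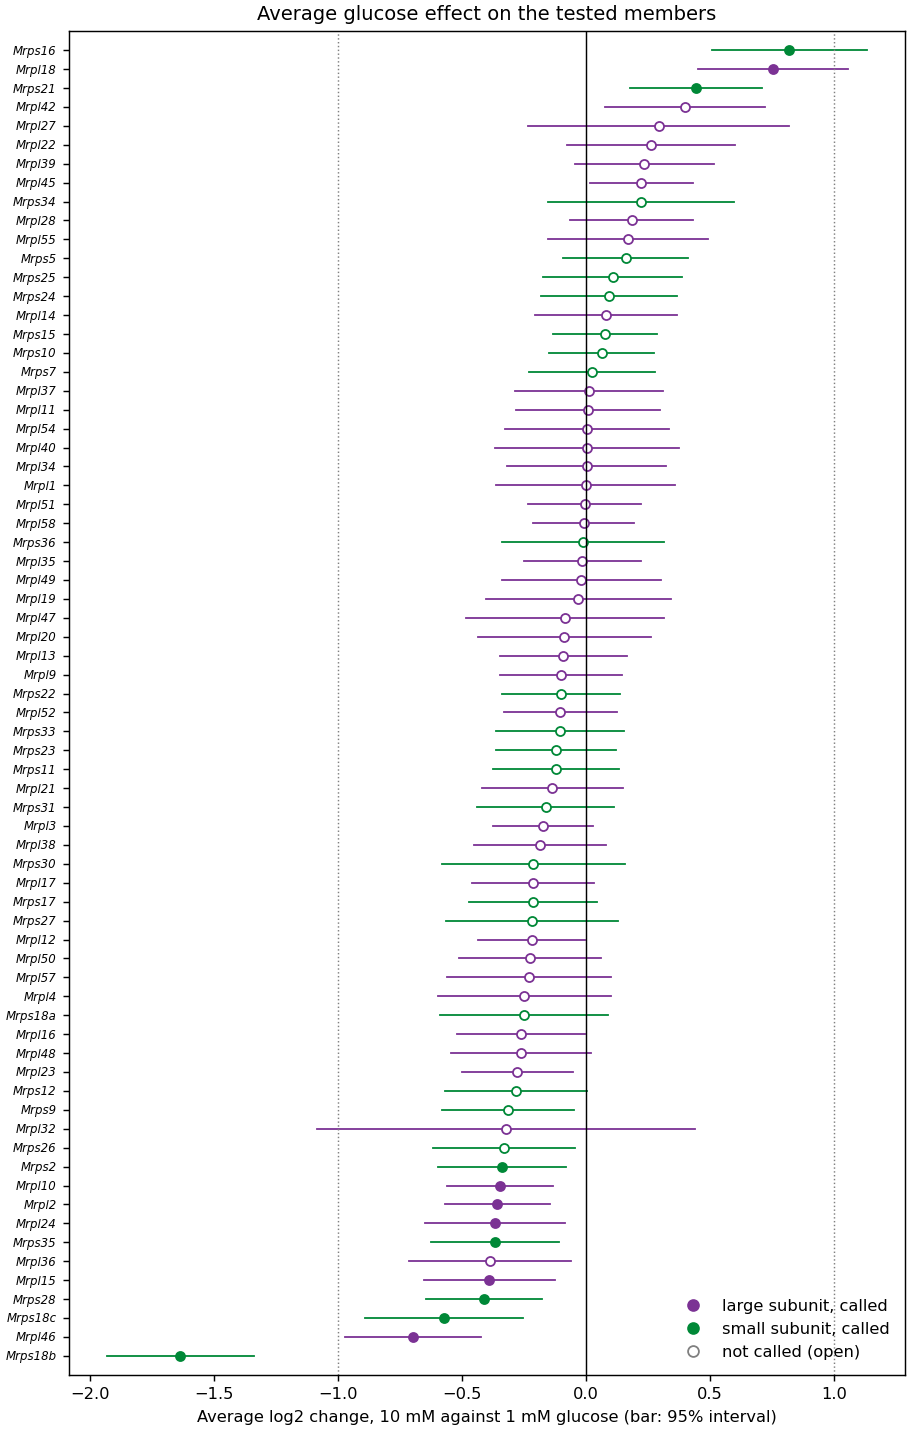
Average log2 change at 10 mM against 1 mM glucose (horizontal axis) of each of the 70 tested members (vertical axis, sorted by the change), with the 95% interval as a bar; filled points passed the test. Most intervals include 0 and lie within the dotted lines at 2-fold, and Mrps18b stands at -1.64, beyond them.

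Mrps18b, a small-subunit protein of a family with a bacterial counterpart, was the member with the largest change. Its log2 signal was 7.81 and 8.03 in control cells at 1 mM glucose and 6.34 and 5.99 at 10 mM. In SiBc cells it was 8.03 and 7.71 at 1 mM and 6.34 and 6.37 at 10 mM. All 4 arrays at 10 mM lay below all 4 arrays at 1 mM, whichever shRNA the cells carried. The change was -1.75 ± 0.18 in control cells (3.37-fold lower, adjusted p = 0.000772), -1.52 ± 0.18 in SiBc cells (2.86-fold lower, adjusted p = 0.00111) and -1.64 ± 0.13 on average (adjusted p = 8.71e-05). A second probe set that names Mrps18b alone fell by 1.53 on average (adjusted p = 6.7e-05). Whether the 2 probe sets share probes was not known here, nor for the pair of Mrps16 sets described next.

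The Mrps18 family has 3 members in mammals, which hold different places in the ribosome. Mrps18c had values of 4.18 and 4.20 in control cells at 1 mM and 3.01 and 3.49 at 10 mM, and of 3.80 and 4.13 against 3.71 and 3.80 in SiBc cells. The control groups did not overlap, while the SiBc groups met at 3.80. It fell by 0.94 ± 0.19 in control cells (adjusted p = 0.0113) and by 0.57 ± 0.14 on average (adjusted p = 0.0132), and its change in SiBc cells was -0.20 ± 0.19 (adjusted p = 0.493). The other single-gene probe set of Mrps18c, with a mean signal of 2.56 close to the filter, had an average change of 0.28 (adjusted p = 0.16). Mrps18a, which sits in the large subunit despite its symbol, was not called, with an average change of -0.25 ± 0.14 (adjusted p = 0.212).

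Mrps16, a small-subunit protein with a bacterial counterpart whose mutation in people causes a combined respiratory chain deficiency, was 5.48 and 5.54 in control cells at 1 mM glucose and 5.81 and 6.32 at 10 mM. The SiBc arrays gave 5.28 and 5.48 at 1 mM and 6.41 and 6.52 at 10 mM. Its 4 arrays at 10 mM were above the 4 at 1 mM. It rose by 0.82 ± 0.13 on average (1.76-fold, adjusted p = 0.00246) and by 1.08 ± 0.19 in SiBc cells (2.12-fold, adjusted p = 0.0055), and its change in control cells was 0.55 ± 0.19 (adjusted p = 0.0696). A second single-gene probe set of Mrps16 rose by 0.94 on average (adjusted p = 0.00374), with 0.92 in control cells (adjusted p = 0.0279) and 0.97 in SiBc cells (adjusted p = 0.0224). It may share probes with the first, so it is not independent support.

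In the central protuberance, the crown of the large subunit facing the small one, 1 of 5 members rose and 1 fell. This called share of 40% was near that of all genes, 39.1%. Mrpl18 was 6.64 and 6.49 in control cells at 1 mM and 7.17 and 7.47 at 10 mM, and 6.58 and 6.98 against 7.45 and 7.62 in SiBc cells. The glucose levels did not overlap in either kind of cell. It rose by 0.76 ± 0.18 in control cells (adjusted p = 0.0222), by 0.75 ± 0.18 in SiBc cells (adjusted p = 0.0222) and by 0.75 ± 0.13 on average (1.69-fold, adjusted p = 0.00321).

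Mrpl46, a protein found only in mitochondrial ribosomes, was 4.07 and 4.23 in control cells at 1 mM and 3.56 and 3.90 at 10 mM. In SiBc cells it was 4.10 and 4.30 at 1 mM and 3.14 and 3.31 at 10 mM, the lowest pair of the 4 groups. It fell by 0.97 ± 0.17 in SiBc cells (1.96-fold, adjusted p = 0.00517) and by 0.70 ± 0.12 on average (1.62-fold, adjusted p = 0.0029), with a change of -0.42 ± 0.17 in control cells (adjusted p = 0.106). The other members of the protuberance, Mrpl48, Mrpl38 and Mrpl40, had average changes of -0.26, -0.19 and 0.0032 and were not called.

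Of the 4 proteins listed for the stalks of the large subunit and their bases, Mrpl10 fell, a called share of 25% against 39.1% of all genes. Mrpl10 was 8.50 and 8.39 in control cells at 1 mM and 8.03 and 7.83 at 10 mM. In SiBc cells it was 8.35 and 8.34 against 8.16 and 8.18. The glucose levels were separate in both. The change was -0.52 ± 0.13 in control cells (adjusted p = 0.0249), -0.18 ± 0.13 in SiBc cells (adjusted p = 0.371) and -0.35 ± 0.09 on average (adjusted p = 0.0205). Another single-gene probe set of Mrpl10, with a mean signal of 2.53 close to the filter, changed by -0.22 on average (adjusted p = 0.446). Mrpl12, which is also known to bind the mitochondrial RNA polymerase, changed by -0.22 (adjusted p = 0.101) and was not called. Mrpl11 at 0.0059 and Mrpl1 at -0.0016 were not called either.

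Around the exit tunnel, from which the new chain reaches the inner membrane, Mrpl24 fell and the other 3 tested members were not called. The called share was 25%, against 39.1% of all genes. Mrpl24 was 8.84 and 8.72 in control cells at 1 mM and 8.36 and 8.65 at 10 mM, and 8.74 and 9.06 against 8.53 and 8.34 in SiBc cells. Its average change was -0.37 ± 0.12 (adjusted p = 0.0468), close to the threshold. Mrpl23 changed by -0.28 (adjusted p = 0.0537). Mrpl45, which tethers the ribosome to the inner membrane, changed by 0.22 (adjusted p = 0.0855), and Mrpl22 by 0.26 (adjusted p = 0.198).

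**Figure D2:**
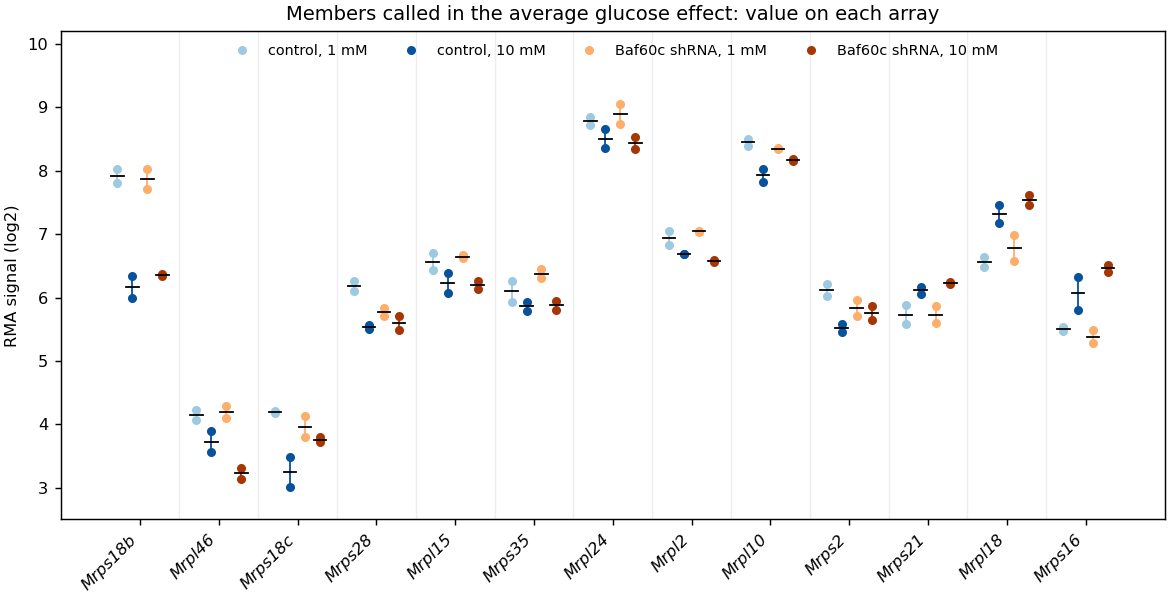
Log2 RMA signal (vertical axis) on each of the 8 arrays for the 13 members called in the average glucose effect (horizontal axis), with 2 points a group joined by a line and the group mean as a black bar. For Mrps18b the 4 arrays at 10 mM glucose lie below the 4 at 1 mM with either shRNA, whereas the SiBc arrays of Mrps2 overlap; heights of different genes are not comparable.

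The remaining called members were spread over both subunits. Mrps28, of the small subunit, was 6.27 and 6.10 in control cells at 1 mM and 5.56 and 5.50 at 10 mM. In SiBc cells it was 5.72 and 5.83 against 5.49 and 5.71. It fell by 0.65 ± 0.14 in control cells (1.57-fold, adjusted p = 0.0141) and by 0.41 ± 0.10 on average (adjusted p = 0.0141). Its control arrays at 1 mM were the highest of the 8.

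Mrps2, a bacterial-type protein of the small subunit, was 6.02 and 6.21 in control cells at 1 mM and 5.58 and 5.46 at 10 mM. The SiBc arrays read 5.97 and 5.71 at 1 mM and 5.65 and 5.87 at 10 mM, so that the glucose levels overlapped there. It fell by 0.60 ± 0.16 in control cells (adjusted p = 0.0296) and by 0.34 ± 0.11 on average (adjusted p = 0.0451).

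Mrpl2, a core protein of the large subunit near the peptidyl transferase centre, was 7.04 and 6.83 in control cells at 1 mM and 6.69 and 6.68 at 10 mM, and 7.06 and 7.03 against 6.59 and 6.56 in SiBc cells. The 4 arrays at 10 mM were the lowest. It fell by 0.47 ± 0.13 in SiBc cells (adjusted p = 0.0342) and by 0.36 ± 0.09 on average (adjusted p = 0.0172).

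Mrpl15, a bacterial-type protein of the large subunit, was 6.70 and 6.44 in control cells at 1 mM and 6.07 and 6.39 at 10 mM, and 6.67 and 6.62 against 6.25 and 6.13 in SiBc cells. It fell by 0.39 ± 0.11 on average (adjusted p = 0.0294). Mrps35, a mitochondria-specific protein of the small subunit, was 6.26 and 5.93 in control cells at 1 mM and 5.93 and 5.79 at 10 mM, and 6.44 and 6.31 against 5.95 and 5.80 in SiBc cells, and fell by 0.37 ± 0.11 (adjusted p = 0.0337). For both genes every array at 10 mM was below its partners at 1 mM within the SiBc cells. Neither was called in either kind of cell alone, with adjusted p between 0.0542 and 0.313.

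Mrps21, a small bacterial-type protein of the small subunit, was 5.88 and 5.58 in control cells at 1 mM and 6.05 and 6.17 at 10 mM, and 5.59 and 5.86 against 6.24 and 6.21 in SiBc cells. All 4 arrays at 10 mM were above those at 1 mM. It rose by 0.44 ± 0.11 on average (1.36-fold, adjusted p = 0.018). Mrpl42, Mrpl45 and Mrpl39 had the next smallest unadjusted p among the higher members and were not called, with changes of 0.40, 0.22 and 0.23. On the lower side Mrpl23, Mrpl36 and Mrps9 came next, at -0.28, -0.39 and -0.31, also not called.

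By subunit, 1 of 43 tested large-subunit symbols rose and 5 fell, with a median change of -0.09, and 2 of 27 small-subunit symbols rose and 5 fell, with a median of -0.12. The split follows the symbols, and Mrps30, like Mrps18a, is known to sit in the large subunit. Among symbols with Mrpl numbers up to 36 and Mrps numbers up to 21, taken as bacterial type, 3 of 40 rose and 7 fell. Among those with higher numbers, taken as mitochondria-specific, 0 of 30 rose and 3 fell. The split is by number alone and may misplace single proteins. Whether these groups differ was not tested. Of 7 tested members mutated in human disorders of mitochondrial translation, Mrps16 rose and Mrps2 fell, a called share of 28.6%. Mrpl12, Mrpl3, Mrps34, Mrps22 and Mrps7, at -0.22, -0.17, 0.22, -0.10 and 0.02, were not called. The mean signal of Mrps14, 1.93, was below the filter, and those of Mrpl27 and Mrps36, 2.61 and 2.81, were close to it. Mrps36 has since been assigned to the alpha-ketoglutarate dehydrogenase complex, and its average change was -0.01. Mrps15 and Mrpl52, with mean signals of 8.46 and 8.80 far above the filter, changed by 0.08 and -0.10 and were not called.

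In control cells alone, Mrpl18 rose and Mrps18b, Mrps18c, Mrps28, Mrpl10 and Mrps2 fell, which is 6 of 70 members where 25.3% of all genes were called, 13.2% higher and 12.1% lower. The members' median change was -0.17, against -0.01 over all genes, and 50 of 70 were below 0, against 50.6% of all genes. An unadjusted p under 0.05 was found for 15 members and for 5047 of the 13308 genes tested. Mrps16, Mrpl27 and Mrps21, with changes of 0.55, 0.88 and 0.38, and Mrps26, Mrpl16 and Mrpl23, with -0.49, -0.41 and -0.35, came closest without being called. The 95% interval lay within 2-fold for 65 members, against 68.1% of all genes. The 2 control groups did not overlap for 11 members that were higher and 29 that were lower at 10 mM, where all genes gave 32.3% and 32.1%. The count of 6 became 2 without Scrb_LG replicate 1, without Scrb_LG replicate 2 or without Scrb_HG replicate 2.

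In SiBc cells, Mrps16 and Mrpl18 rose and Mrps18b, Mrpl46 and Mrpl2 fell, 5 of 70 members where 25.1% of all genes were called, 14.5% higher and 10.6% lower. The median change was -0.07, against 0.03 over all genes, and 45 of 70 were below 0, against 47.6%. Unadjusted p lay under 0.05 for 11 members and for 4973 of the 13308 genes tested. Mrps21, Mrpl28 and Mrpl42, at 0.50, 0.37 and 0.46, and Mrps35, Mrpl15 and Mrpl24, at -0.50, -0.45 and -0.46, were the next and were not called. The split of 2 higher and 3 lower became 2 and 6 with arrays centred on their medians and 2 and 5 after quantile normalization. The calls over all genes also moved downwards, from 1936 higher and 1406 lower to 1612 and 1826 and to 1766 and 1673. The interval lay within 2-fold for 64 members, against 68.2% of all genes. The SiBc groups did not overlap for 11 members that were higher and 22 that were lower at 10 mM, where all genes gave 34.8% and 29.4%. Without SiBc_HG replicate 1 or without SiBc_HG replicate 2, 3 members were called.

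The 2 responses, which share no array, had the same sign for 47 of the 70 members (67.1%), 36 of them lower and 11 higher in both, against 76.8% of all genes. Across members the changes correlated with a Pearson r of 0.59 and a Spearman rho of 0.54, and r was 0.45 without Mrps18b; genes are not independent replicates. The r over all genes was 0.83. Mrps18b and Mrpl18 were called in both kinds of cell and 9 members in at least 1, all 9 of which were also called on average.

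**Figure D3:**
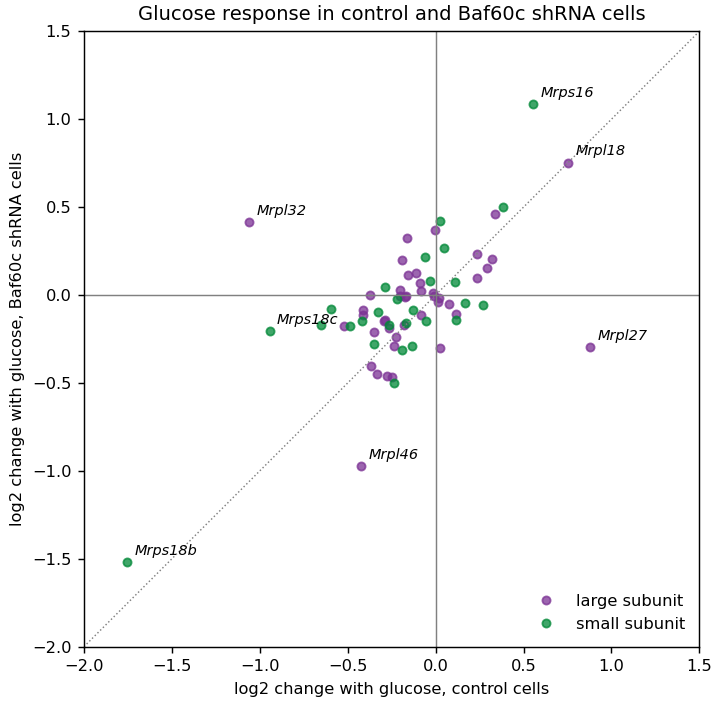
Log2 change with glucose of each tested member in control cells (horizontal axis) and in Baf60c shRNA cells (vertical axis), coloured by the subunit its symbol names; the dotted line marks equal changes. Mrps18b and Mrpl18 lie near the line, and Mrpl32 and Mrpl27, the members with the widest spread between replicates, lie off it.

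The median deviation of the 70 members from each gene's own mean over the arrays was 0.15 and 0.01 in control cells at 1 mM and -0.12 and -0.05 at 10 mM, and 0.02 and 0.03 against -0.03 and -0.05 in SiBc cells. The arrays at 10 mM lay below those at 1 mM, and Scrb_LG replicate 1 stood above its replicate. The members' median change with glucose stayed negative in both kinds of cell after centring the arrays or quantile normalization.

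Other genes of the 2 translation systems and of respiration were set beside the members. Of 58 tested cytosolic ribosomal proteins, 0 rose and 11 fell on average over both shRNAs, with a median change of -0.20 and 52 below 0. The share of all genes that fell was 17.8%. With centred arrays 21 of these 58 fell, and 2904 of the 13308 genes tested. After quantile normalization 13 of the 58 fell, and 2660 of all genes. Of 16 mitochondrial aminoacyl-tRNA synthetases, which charge the tRNAs the mitochondrial ribosome uses, 1 rose and 7 fell, with a median of -0.29. The nuclear subunits of oxidative phosphorylation assemble with the products of the mitochondrial ribosome. They went the other way, with 27 of 75 higher, 2 lower and a median of 0.25. The called share was 19.0% for the cytosolic proteins, 50% for the synthetases and 38.7% for these subunits. Over all genes it was 39.1% (21.3% higher and 17.8% lower). These directions of the medians held under both other scalings. Differences between the lists were not tested.

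**Figure D4:**
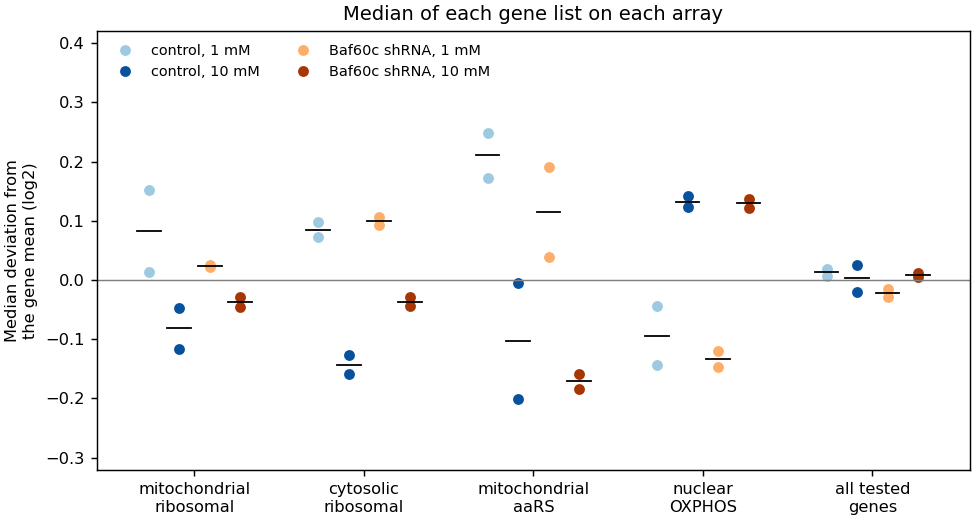
Median deviation from each gene's mean over the 8 arrays (log2, vertical axis) for 4 gene lists and all tested genes (horizontal axis), with 1 point an array and the group mean as a bar; aaRS are aminoacyl-tRNA synthetases. The nuclear oxidative phosphorylation genes are higher at 10 mM glucose, and the cytosolic and mitochondrial ribosomal proteins lower, while the median of all genes stays near 0.

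Among 26 mitoribosome assembly and RNA processing factors, 2 rose and 7 fell with glucose on average. Called factors made up 34.6%, against 39.1% of all genes (21.3% higher and 17.8% lower). With centred arrays 1 rose and 8 fell, and 2409 and 2904 of the 13308 genes tested. After quantile normalization 1 rose and 10 fell, and 2616 and 2660 of all genes. Noa1, a GTPase of small-subunit assembly, fell by 0.71 ± 0.11 (adjusted p = 0.00158), Rcc1l, a mitochondrial exchange factor needed for assembly, by 0.77 ± 0.13 (adjusted p = 0.00323), Mterf3 by 0.47 ± 0.10 (adjusted p = 0.00739) and Trub2, a pseudouridine synthase, by 0.64 ± 0.13 (adjusted p = 0.00761). Of 13 tested translation factors and mRNA regulators, Oxa1l, the insertase that receives nascent chains, rose by 0.54 ± 0.11 (adjusted p = 0.00802), while Mrrf, the ribosome recycling factor, fell by 0.62 ± 0.10 (adjusted p = 0.00274) and Lrpprc, which stabilises mitochondrial messages, by 0.59 ± 0.12 (adjusted p = 0.00665). Guf1, at 0.23, was not called. The called share of these 13 genes was 23.1%, against 39.1% of all genes. Of the ribosome's proteins with other symbols, Gadd45gip1, Ptcd3 and Dap3 were on the array through probe sets of their own, and their changes of 0.13, 0.13 and -0.04 were not called.

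Regulators of mitochondrial transcription and biogenesis were read for the factors named with the motifs. Myc, a factor known to act on genes of ribosome production, was 9.04 on both control arrays at 1 mM glucose and 5.89 and 6.06 at 10 mM. In SiBc cells it was 9.11 and 9.08 at 1 mM and 6.32 and 6.23 at 10 mM. The glucose levels lay far apart with either shRNA, and Myc fell by 3.07 ± 0.13 in control cells (adjusted p = 4.53e-05), by 2.82 ± 0.13 in SiBc cells (adjusted p = 5.33e-05) and by 2.94 ± 0.09 on average (adjusted p = 4.13e-06). The knockdown changes of Myc, 0.05 at 1 mM, 0.31 at 10 mM and 0.18 on average, and its interaction of 0.25, were not called. Of the 14 regulators, 1 rose, which is not among those named here, and 5 fell. Their average changes were above 0 for 4 of the 14, the highest at 0.76. The called share was 42.9%, against 39.1% of all genes (21.3% higher and 17.8% lower). Pprc1, a coactivator related to PGC-1 alpha, fell by 1.22 ± 0.13 (adjusted p = 0.0003), Nrf1 by 0.40 ± 0.10 (adjusted p = 0.0152) and Gabpb1, a GABP subunit, by 0.49 ± 0.12 (adjusted p = 0.0156). Whether any of these changes bears on the members was not tested.

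Knockdown of Baf60c left no member called. At 1 mM glucose limma called 0 of 70, where 1.49% of all genes were called. There, 2 members had an unadjusted p under 0.05, as did 2115 of the 13308 genes tested. The members' median change was -0.02 and turned to 0.03 with centred arrays, and that of all genes turned from -0.03 to 0.02. At 10 mM limma called 0, where 1.12% of all genes were called. There, 4 members had an unadjusted p under 0.05, as did 1807 of the 13308 genes tested. The members' median was 0.05, against 0.01 over all genes. The count of called members was also 0 at both glucose levels with eBayes fitted with a trend and robustly. The 95% interval lay within 2-fold for 68 of the 70 at each glucose level, against 83.5% and 85.1% of all genes, and changes smaller than these intervals were not detectable with 2 arrays a group. The exceptions were Mrpl32 and Mrpl27 at both levels.

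At 1 mM the members closest to the threshold were Mrps28 at -0.41, Mrpl32 at -1.11 and Mrpl14 at -0.39 on the lower side and Mrpl55 at 0.41, Mrps35 at 0.28 and Mrps10 at 0.23 on the higher side, with adjusted p from 0.226 to 0.446. At 10 mM they were Mrpl46 at -0.50, Mrpl27 at -0.88 and Mrps31 at -0.25, and Mrps18c at 0.51, Mrps5 at 0.37 and Mrps16 at 0.40, with adjusted p from 0.246 to 0.578. Averaged over both glucose levels, 0 of 70 were called, where 4.31% of all genes were, and 0 with a trend and robust fit. Unadjusted p were under 0.05 for 2 members and for 2617 of the 13308 genes tested. The interval was within 2-fold for 69 members, all but Mrpl32, against 94% of all genes. The smallest unadjusted p were those of Mrpl55, Mrps5 and Mrpl20, at 0.34, 0.26 and 0.30, and of Mrps31, Mrpl49 and Mrpl46, at -0.26, -0.30 and -0.23.

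**Figure D5:**
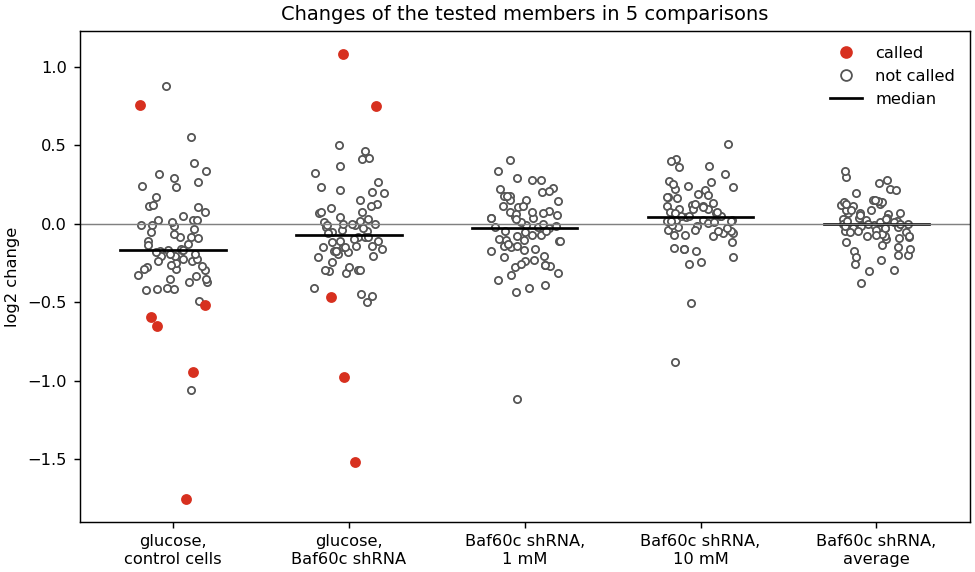
Log2 change (vertical axis) of each of the 70 tested members in 5 comparisons (horizontal axis; the first 2 are 10 mM against 1 mM glucose, the others Baf60c against control shRNA), with called members in red and the median as a black line. Red points occur only under glucose, and the lowest point of the knockdown at 1 mM, at -1.11, is Mrpl32.

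Mrpl32, a large-subunit protein known to be processed by the m-AAA protease before assembly, had the widest replicate spread of the members, a pooled SD of 0.60 against a median of 0.17. It was 7.23 and 6.81 in control cells at 1 mM and 6.09 and 5.83 at 10 mM, and 6.72 and 5.09 against 6.28 and 6.36 in SiBc cells. The 2 SiBc arrays at 1 mM stood apart by more than any change between groups of this gene. Without SiBc_LG replicate 1 it was called at 1 mM (-1.93, adjusted p = 0.0273) and on average (-0.79, adjusted p = 0.0485), and no other member was called in a knockdown comparison when 1 array was left out.

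The interaction asks whether the glucose response differed between SiBc and control cells. By limma it was called for 0 of 70 members and 0% of all genes. With a trend and robust fit 0 members were called. Unadjusted p under 0.05 were found for 4 members and for 1049 of the 13308 genes tested. Mrps18c at 0.74, Mrps28 at 0.48 and Mrps2 at 0.51 had the smallest p among positive values and Mrpl27 at -1.17, Mrpl46 at -0.55 and Mrps25 at -0.33 among negative ones, with adjusted p from 0.59 to 0.783. The largest value, 1.47, was that of Mrpl32. Mrpl27 was 2.69 and 1.93 in control cells at 1 mM and 2.87 and 3.51 at 10 mM, and 2.36 and 2.85 against 2.18 and 2.45 in SiBc cells, all near the level of the filter. The interval lay within 2-fold for 60 members, against 67.1% of all genes. Mrps18c, Mrps28, Mrps2 and Mrpl10 were called in control cells alone and Mrps16, Mrpl46 and Mrpl2 in SiBc cells alone. With no interaction called, their responses were not shown to differ between the 2 kinds of cell.

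The 7 symbols on shared probe sets were read only with their partners. The set of Mrps6 and Slc5a3, a myo-inositol transporter, fell by 1.03 ± 0.14 on average (adjusted p = 0.00107), from 8.08 and 7.93 to 6.69 and 7.19 in control cells and from 8.14 and 8.26 to 7.04 and 7.36 in SiBc cells. Which of the 2 genes the signal came from cannot be told apart. The set of Mrpl33 and Gm38424 rose by 0.47 ± 0.12 (adjusted p = 0.0209), and that of Mrpl33 and Babam2 was called in SiBc cells alone (0.44 ± 0.13, adjusted p = 0.0422). The shared sets of Mrpl30, Mrpl41, Mrpl43, Mrpl44 and Mrpl53 were not called. Mrps34, a member by its own probe set, also shares one with Nme3, which rose by 0.47 ± 0.10 (adjusted p = 0.00757), while its own probe set changed by 0.22 (adjusted p = 0.316).

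Members often lie head to head with another gene. Of the 62 with a RefSeq window, 23 (37.1%) had a start on the opposite strand, facing away, within 1000 bases, against 12.3% of all genes with a window. Mrpl46 and Mrps11, both members, start 42 bases apart, and Mrps11 changed by -0.12 (adjusted p = 0.415) where Mrpl46 fell. The partners of the other called members, Ppp1r10 for Mrps18b at -0.13, Tcp1 for Mrpl18 at -0.10, Klc4 for Mrpl2 at 0.23 and Helq for Mrps18c at -0.26, were not called on average. In turn, Ska3 rose by 2.41 and Ncapd2 by 1.45, both genes of mitosis, beside Mrpl57 and Mrpl51, whose changes of -0.23 and -0.0066 were not called. Beside Mrpl55, Mrps5 and Mrpl14, also not called, 2610507I01Rik rose by 0.89, while Zfp661 fell by 0.77 and Tmem63b by 0.38. Apart from Mrpl46, the remaining tested partners of members that were not called had no call. Over all genes 39.1% were called on average.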

How the data were processed

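The deposited table held log2 values of 41345 probe sets on 8 arrays, made by the authors with affy and RMA, per the submitters' processing notes; tool versions and the build behind the probe sets are not given in the sources used here. RMA brings arrays to a common distribution, so a shift common to all genes cannot be seen, and it compresses changes of dim genes. Genes were named from the platform annotation, which gave 1 gene to 23521 probe sets, several to 1814 and none to 16010, and only the first were used, except where a shared probe set is named. Of several probe sets of a gene the brightest by mean was kept, and genes below the 40th percentile of the mean were left out. limma 3.58.1 in R 4.3.3 (lmFit, eBayes) fitted 1 mean per group over all 8 arrays, with 4 residual and 3.36 prior degrees of freedom, in 7 comparisons: glucose in each kind of cell, knockdown at each glucose level, their interaction and the 2 average effects. Adjusted p are Benjamini-Hochberg values over the 13308 genes tested. The script was tested on simulated data.

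The series describes the replicates as independent, and the 2 arrays a group limit the precision of every value. Replicate numbers were shared between groups, but deviations of same-numbered arrays from their group means correlated at -0.04 to 0.11, so they were not taken to pair the samples. Alternatives were no filter, a stricter filter (60th percentile), a trend and robust fit, median-centred arrays, quantile normalization, the mean over a gene's probe sets, a replicate block, a fit to the groups compared only, and leaving out each array.

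The members and all gene lists were chosen with earlier results of these data known. Named were, per comparison, up to 6 called members a direction by adjusted p and, where fewer were called, the 3 next by unadjusted p; the 3 brightest and 3 dimmest members; all members of the role lists; up to 4 genes a pathway list; and Myc. The printed sequences, genes on shared probe sets, the markers of other cell types, head-to-head partners, Mrps36, Mrpl32 with its values, and the remaining called members were named after their values were seen. Upstream sequences and gene starts were read from RefSeq tables of GRCm38.p6, which held 62 of the 71 members.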

Additional observations from a re-analysis of the deposited data

How the results depend on the processing

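No direction of a member's call or of the members' median change with glucose was reversed under the alternatives run. The median of all genes turned from 0.01 to -0.06 on average and from 0.03 to -0.07 in SiBc cells with centred arrays, and that of the 3 ribosomal proteins with other symbols from 0.13 to -0.06 on average after quantile normalization. For glucose in SiBc cells, 8 members were called in place of 5 with the stricter filter, with the trend and robust fit and with centred arrays. When single arrays were left out, the count of called members ranged from 2 to 7 for glucose in control cells, from 3 to 6 in SiBc cells and from 5 to 14 on average, from 0 to 1 for the knockdown at 1 mM and on average, and was 0 for the knockdown at 10 mM and the interaction. The fit with the replicate number as a block called 7, 6 and 12 members for glucose in control cells, in SiBc cells and on average, and 0 in the other 4 comparisons. Mrps18b was called in all alternatives of its 3 glucose comparisons, as were Mrps16 and Mrpl46 in SiBc cells and on average and Mrpl18 on average. The calls on average of Mrps2 and Mrpl24 were kept in 6 of 15 alternatives each, of Mrps35 in 7 and of Mrpl15 in 8, and the cause was not tested. With the mean over both probe sets in place of the first one, the average change of Mrps18c was -0.15 (adjusted p = 0.421). The median change with glucose moved from -0.07 to -0.16 in SiBc cells and from -0.10 to -0.18 on average with centred arrays.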
